A study of Macaca mulatta with 4 samples.

Results

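The RAB37 GABRB2 nuclei were granule-like nuclei of the fetal rhesus cerebellum that carried RNA of RAB37, PTK2B, GABRB2, MEGF11 and SLIT3. They were chosen from the measured counts of unique molecular identifiers (UMIs), which count RNA molecules. A barcode with at least 500 genes entered if it held 0 UMIs of SLC1A3, GAD2, MKI67 and TOP2A, which mark astroglia, GABAergic neurons and dividing cells. It was a member if at least 2 of these 5 genes were detected and no other list of 5 genes had as many detected. The 5 other lists are named here by COL21A1, RASGEF1B, CHRM3, TRPC7 and NELL1, the gene each begins with. The rule found 1164 members among 32587 nuclei. Of these, 11069 nuclei were led by 1 of the 6 lists, with 1842 in the TRPC7 list and 894 in the NELL1 list.

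Single-nucleus RNA sequencing (snRNA-seq) was done on frozen cerebellar hemisphere of 4 rhesus macaque fetuses, with 1 library per fetus. The 2 control fetuses, a female and a male at 130 days of gestation, had no intervention. The 2 LPS-exposed fetuses were a female at 131 days and a male at 133 days. They were delivered 5 days after an intra-amniotic injection of 1 mg of lipopolysaccharide (LPS), a bacterial cell wall component used to model chorioamnionitis. Age thus differed between the groups and cannot be told apart from exposure. Values given in a row of 4 follow the order control female, control male, LPS female and LPS male fetus.

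Granule cells relay input within the cerebellar cortex. Their precursors divide on the cerebellar surface under Sonic hedgehog from Purkinje cells, leave the cell cycle, migrate inward along Bergmann glia and settle in the internal granular layer. There they receive glutamate from mossy fibers and GABA from Golgi cells, and their axons become the parallel fibers that excite Purkinje cells. During this course they exchange GABA-A receptor genes of the immature neuron, such as GABRA2, for others such as GABRA6 and GABRB2, and add the NMDA receptor gene GRIN2C.

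The libraries differed in depth and in free RNA, the RNA outside nuclei that enters every droplet. Total UMIs ranged from 34282015 in the control male to 61665690 in the control female. Nuclei held between 38.7% of the UMIs in the LPS male and 74.1% in the LPS female. Barcodes ranked below the nuclei by UMIs were taken as free RNA and were not tested for being empty. They held a median of 283, 182, 215 and 467 UMIs. The estimated share of free RNA in nuclei was 9.0%, 28.2%, 7.64% and 34.4%. Both males were thus high in free RNA, with the LPS male highest. Levels are given as CPM, the UMIs of a gene scaled to the same total in every group of nuclei. The 5 list genes summed to 98.9, 189.8, 58.3 and 702 CPM in free RNA, so the LPS male also stood apart in the genes of the rule. Pairs of libraries shared 16 to 22 barcodes, of which 0 were members.

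The members held 94, 95, 41 and 934 nuclei. They were deeper than the nuclei of the other 5 lists in each library, with a median of 4817, 2103, 4795 and 2913 UMIs against 4032, 1739.5, 3691.5 and 2237.5. Their summed UMIs were 455038, 213207, 189014 and 3169825. The LPS female gave the fewest UMIs. At 3 UMIs, a count of 0 allows a level of up to 6.59, 14.1, 15.9 and 0.946 CPM. Mitochondrial genes took 0.189%, 0.0131%, 0.180% and 0.0178% of their UMIs. Doublet calling marked 3, 1, 0 and 31 members.

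The label of mature granule cells was checked on markers. The 12 granule lineage markers were all detected in the members of every library, with ZIC2 on 2, 3, 1 and 22 UMIs. Summed, they had 8773, 10004, 8322 and 11500 CPM in the members and 12700, 12343, 12112 and 11437 in the other 5 lists. Astroglial nuclei had 8032, 6907, 7511 and 6981 CPM and free RNA 8337, 8992, 6580 and 9635 CPM. Detection of these markers alone thus does not set the members apart. RBFOX3, the neuronal splicing factor known as NeuN, was found in 97.9, 95.8, 85.4 and 95.9% of the members and in 53.3, 36.5, 40.1 and 43.5% of astroglial nuclei, and its log2 ratio to the other 5 lists went both ways, at 0.14, -0.04, -0.17 and 0.41. SLC17A7, the vesicular glutamate transporter of granule cells, was found in 31.9, 14.7, 19.5 and 30.5%, at 70.3, 75.0, 52.9 and 119 CPM, against 54.3, 77.0, 43.4 and 73.4 CPM in the other 5 lists and 91.0, 31.1, 61.3 and 57.3 CPM in free RNA. Free RNA of SLC17A7 was above the members in both females, so its detection there is not read as expression. GABRA6, the GABA-A receptor gene most particular to mature granule cells, was found in 35.1, 9.47, 24.4 and 27.1% of the members and in 2.42, 0.690, 3.51 and 3.73% of astroglial nuclei, which should lack it. Astroglial nuclei were those with at least 3 UMIs of SLC1A3 and had a median of 5544.5, 2802, 4774 and 2900 UMIs. GABRA6 was thus above this background in each library, but most members had no UMI of it. There were 7 mature granule genes outside the rule with at least 5 UMIs in each library. Of these, 4 were higher in the members than in the other 5 lists in all 4 libraries and 0 lower. Among the 4, GABRA6 and GRIN2C were also above both the TRPC7 and the NELL1 list in each library. Of 11 granule lineage genes, 3 were higher and 4 lower. Over all 5006 genes compared in this way, 19.9% were higher and 24.3% lower. CBLN1, another of the 4 mature granule genes, was below free RNA in the control female, at 65.9 against 72.9 CPM. GRIN2C had 35.2, 56.3, 31.7 and 79.5 CPM in the members, on 6 UMIs in the LPS female. Astroglial nuclei held 13.2, 32.2, 9.65 and 37.1 CPM of it, so GRIN2C was not confined to granule-like nuclei.

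Some late markers were low or had 0 UMIs in a library. CBLN3, a synaptic organizer of mature granule cells, had 48.3, 0, 21.2 and 45.7 CPM in the members. Free RNA held 36.3, 1.06, 6.98 and 37.7 CPM of CBLN3, near the members in the control female and the LPS male. GABRD, which encodes a GABA-A subunit outside synapses, had 8.79, 0, 5.29 and 24.9 CPM, on 4, 0, 1 and 79 UMIs. Both were at 0 in the 95 members of the control male, which allows up to 3.16% of members with a UMI. It also allows up to 14.1 CPM, above GABRD in both females, so GABRD is not read as absent there. ATOH1, the factor that defines granule precursors, and SKOR2 of Purkinje cells had 0 UMIs in the members of every library. This allows up to 3.19, 3.16, 7.32 and 0.321% of members with a UMI. ATOH1 in the other lists was itself below the level in CPM that a count of 0 allows in each library. So was SKOR2, except in the LPS male. These counts of 0 are thus not read as a difference from the other lists. The names "mature" and "granule-like" are used with these limits.

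Markers of other cells were compared with those in the other lists. Without SLC1A3, which the rule sets to 0, the 4 other astroglial markers summed to 818, 309.6, 365 and 1261 CPM in the members, 581, 420.0, 402 and 1041 in the other 5 lists and 2466, 2168, 2653 and 4060.2 in astroglial nuclei. SLC4A4, a bicarbonate transporter of astrocytes, made up most of the members' sum, at 789, 300.2, 333 and 1221 CPM. The members were below astroglial nuclei in this sum, while they were above the other lists in the control female and the LPS male. PTCH1, DCC and HES6 were the precursor markers with at least 5 UMIs in each library. PTCH1, the hedgehog receptor, was higher in the members at 185, 314, 122 and 242 CPM against 131, 204, 106 and 188, and DCC and HES6 were lower in each library.

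Summed oligodendrocyte lineage markers had 341, 277, 487 and 442 CPM in the members and 501, 408, 646 and 802 in the other lists, and Purkinje cell markers 68.1, 79.7, 63.5 and 131 against 156, 288, 92.7 and 291. Both sums were below the other lists in each library. PDGFRA, a marker of oligodendrocyte precursors and the only oligodendrocyte lineage gene with at least 5 UMIs in the members of each library, ran the other way, at log2 ratios to the other lists of 0.14, 0.40, 0.02 and 0.13. It was found in 78.7, 36.8, 75.6 and 36.9% of the members, and in 74.3, 50.9, 79.4 and 43.7% of astroglial nuclei. It was less frequent in the members than in astroglial nuclei in each library but the control female.

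The LPS female stood apart in other markers. Summed markers of unipolar brush cells had 10.99, 9.38, 217 and 44.5 CPM in the members against 48.2, 36.4, 34.3 and 76.9 in the other lists, and of interneurons 24.2, 65.7, 127 and 23.0 against 21.3, 76.5, 23.6 and 44.8. Those of microglia had 13.2, 18.8, 42.3 and 14.8 CPM against 15.1, 18.6, 12.6 and 16.6 and of endothelium 4.40, 18.8, 52.9 and 12.9 against 23.8, 54.5, 30.8 and 21.6. In each of these 4 lists the members of the LPS female were above the other lists and above the members of the other fetuses. Within each list 1 gene held most of the UMIs there, such as GAD1 with 19, P2RY12 with 6 and VWF with 9. CX3CR1, CSF1R and C1QB of microglia and FLT1 and CLDN5 of endothelium had 0 UMIs in these members. Fibroblast markers had 8.79, 14.1, 15.9 and 1.26 CPM against 9.41, 12.2, 19.9 and 2.18. TTR, the transthyretin of choroid plexus, had 0, 0, 265 and 1.58 CPM in the members and 76.8, 3.60, 4645 and 10.3 CPM in free RNA, so the LPS female stood apart in both. The part of these cells and of free RNA in the results that follow was not tested.

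RAB37 encodes a small GTPase of secretory vesicles. Its level in the members was 290.1, 127, 111 and 556 CPM, against 4.24, 5.51, 2.25 and 53.8 CPM in free RNA. It was detected in 68.1, 17.9, 34.1 and 66.2% of the members and in 3.33, 0.690, 2.09 and 9.41% of astroglial nuclei. Detection of RAB37 was low in the control male and high in the control female and the LPS male.

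PTK2B encodes Pyk2, a tyrosine kinase activated by calcium. The members had 396, 628, 365 and 640.4 CPM of PTK2B, with detection in 83.0, 75.8, 80.5 and 83.4% of them. Free RNA held 15.8, 27.3, 12.2 and 161 CPM and the NELL1 list 74.6, 135, 97.5 and 202 CPM. Detection in members was even across the 4 libraries, while free RNA and the NELL1 list were each highest in the LPS male.

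GABRB2 encodes the GABA-A receptor beta subunit of mature granule cells. Its level was 864, 652, 921 and 595 CPM in the members and 58.7, 75.0, 33.3 and 332 CPM in free RNA. It was found in 97.9, 71.6, 92.7 and 81.3% of the members, in 42.4, 8.25, 44.4 and 21.6% of NELL1 list nuclei and in 11.1, 4.95, 9.29 and 19.2% of astroglial nuclei. GABRB2 was the nearest of the 5 genes to free RNA in the LPS male, where the members stood 1.79 times above free RNA.

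MEGF11 encodes an adhesion protein with epidermal growth factor repeats that spaces neurons in the retina. It had 503, 783, 429 and 568 CPM in the members and 17.2, 72.2, 9.23 and 108 CPM in free RNA, and was detected in 87.2, 80.0, 82.9 and 72.5% of the members. SLIT3 encodes a secreted ligand of Robo receptors that guides axons and migrating cells. It had 134, 93.8, 95.2 and 204 CPM and was detected in 43.6, 17.9, 31.7 and 44.8% of the members. MEGF11 was thus found in most members of each library, and SLIT3 in fewer of them.

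Over free RNA, the members' level was lowest in the LPS male for each of the 5 genes, at 10.3, 3.99, 1.79, 5.25 and 4.28 times for RAB37, PTK2B, GABRB2, MEGF11 and SLIT3. In the other 3 libraries these ratios ranged from 8.69 to 70.5. The plot of detection by nuclear class shows the members above the NELL1, TRPC7 and astroglial nuclei for each gene and library. These values follow from the rule and are a description.

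**Figure D1:**
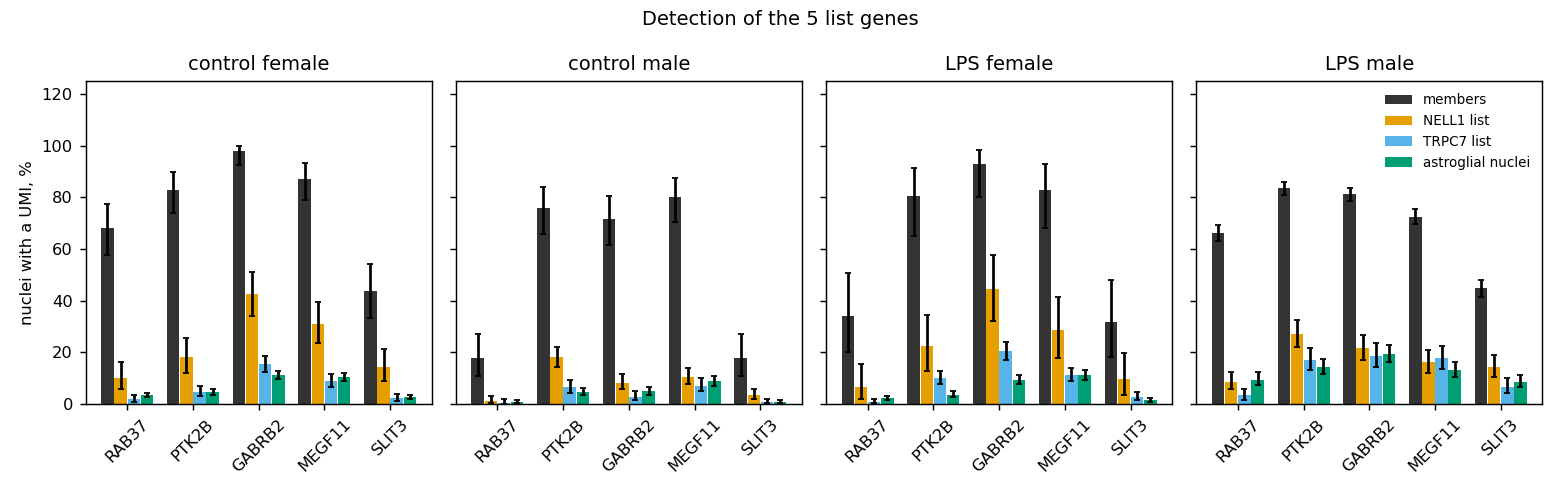
Percent of nuclei with at least 1 UMI of each of the 5 list genes, by library, in the RAB37 GABRB2 nuclei, the NELL1 and TRPC7 list nuclei and astroglial nuclei; bars are exact 95% binomial intervals. In the members detection of GABRB2 was 97.9%, 71.6%, 92.7% and 81.3% and of SLIT3 43.6%, 17.9%, 31.7% and 44.8%.

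The members carried different numbers and combinations of the 5 genes. In the control female 5, 25, 48 and 16 members had 2, 3, 4 and 5 of them. In the control male these numbers were 47, 36, 12 and 0, in the LPS female 8, 18, 13 and 2, and in the LPS male 146, 321, 339 and 128. The control male thus had the fewest genes per member, and also the shallowest members. The combination of RAB37, PTK2B, GABRB2 and MEGF11 was the commonest in the control female with 27 nuclei and in the LPS male with 155. The same combination without RAB37 led in the control male with 22 nuclei and in the LPS female with 10.

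The edge of the rule held many nuclei. Members that led by only 1 gene numbered 48, 68, 30 and 453. Just outside, 84, 77, 59 and 349 nuclei had at least 2 list genes but tied with another list, and 136, 70, 118 and 190 had at least 2 but fell behind another list. Nuclei of the members also carried genes of the neighbouring lists. A NELL1 list gene was found in 93.6%, 74.7%, 90.2% and 88.0% of the members, a TRPC7 list gene in 93.6%, 58.9%, 90.2% and 71.2%, and a COL21A1 list gene in 14.9%, 22.1%, 26.8% and 23.6%. A RASGEF1B list gene was found in 70.2%, 57.9%, 51.2% and 58.8%, and a CHRM3 list gene in 62.8%, 38.9%, 56.1% and 51.0%. In each library most members thus carried genes of the NELL1, TRPC7 and RASGEF1B lists besides those of their own. The shares for the NELL1 and TRPC7 lists were the largest in each library.

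Members with 4 or 5 list genes were set beside those with 2 or 3. OPCML, a cell adhesion gene, had 525, 485, 493 and 838 CPM in members with 2 or 3 genes. It had 158, 47, 76 and 778 CPM in those with 4 or 5. In the control male the value in members with 4 or 5 genes rested on 2 UMIs in 12 nuclei, and in the LPS female on 6 UMIs in 15 nuclei. RBFOX1, a neuronal splicing factor, stood at 6886, 6295, 4451 and 10945 CPM against 8430, 5959, 5152 and 11090. GABRA6 was at 61, 53, 55 and 103 CPM against 151, 47, 139 and 119, and LRRC3B at 510, 41, 192 and 529 against 599, 71, 353 and 690 CPM. In the control male, GABRA6 rested on 2 UMIs and LRRC3B on 3 UMIs in members with 4 or 5 genes. No order is read there. GABRA6 rested on 8 UMIs against 49 in the control female and on 6 against 11 in the LPS female. Other genes went both ways. ETV1 had 335, 134, 210 and 511 CPM in members with 2 or 3 genes against 405, 190, 214 and 477. SCN2A had 890, 660, 575 and 1067 CPM against 834, 712, 932 and 1081. The split used genes of the rule, so these levels are a description. The more complete members were also deeper, with a median of 4994.5, 2912, 5136 and 3485 UMIs against 4151.5, 1983, 4393.5 and 2408.

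The LPS male held by far the most RAB37 GABRB2 nuclei. They made up 1.02% of nuclei in the control female (exact 95% interval 0.821 to 1.24), 1.10% in the control male (0.892 to 1.35), 0.594% in the LPS female (0.426 to 0.805) and 11.97% in the LPS male (11.3 to 12.7). The intervals cover counting error only. The LPS female was below both controls and the LPS male above them, so the groups overlapped. Of the nuclei led by any list, members were 3.58%, 2.77%, 1.80% and 34.3%. The share among all nuclei had a ratio of LPS to control of 0.585-fold in females and 10.9-fold in males.

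Whether the share differed between LPS-exposed and control fetuses was tested on nuclei counts of 8 classes per fetus by edgeR's quasi-likelihood test. The log2 ratio was 2.57 with a standard error (SE) of 1.00, and the adjusted p was 0.165 with n = 2 fetuses per group. Spread was pooled over the 8 classes, whose SE lay between 0.938 and 1.00. The SE thus does not measure how far this share alone varied between fetuses. Called classes were 0 of 8 (0%), and the smallest p that an exact permutation test of 2 against 2 fetuses can give is 0.333. The result rested on the LPS male: without this fetus the log2 ratio was -0.83, and without the LPS female it was 3.50. Each of these fits left only the other LPS-exposed fetus in its group, so spread between LPS-exposed fetuses was not measured. With sex as a block the log2 ratio was 1.37 (adjusted p = 0.950, edgeR).

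Nuclei outside the members also met the list part of the rule more often in the LPS male. Among nuclei with any UMI of the 4 exclusion genes, 1.23%, 1.03%, 0.489% and 13.5% had at least 2 list genes and more than of every other list. Among those with a GAD2 UMI these were 3.21%, 2.15%, 1.10% and 11.9%, and with a UMI of MKI67 or TOP2A 1.23%, 0.303%, 0.370% and 11.9%. In astroglial nuclei, 0.606%, 0.230%, 0.284% and 5.15% met it. The LPS male was thus highest also in nuclei with genes of other cell types, and its free RNA was high in the list genes. The part of free RNA in the members' share was not tested.

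**Figure D2:**
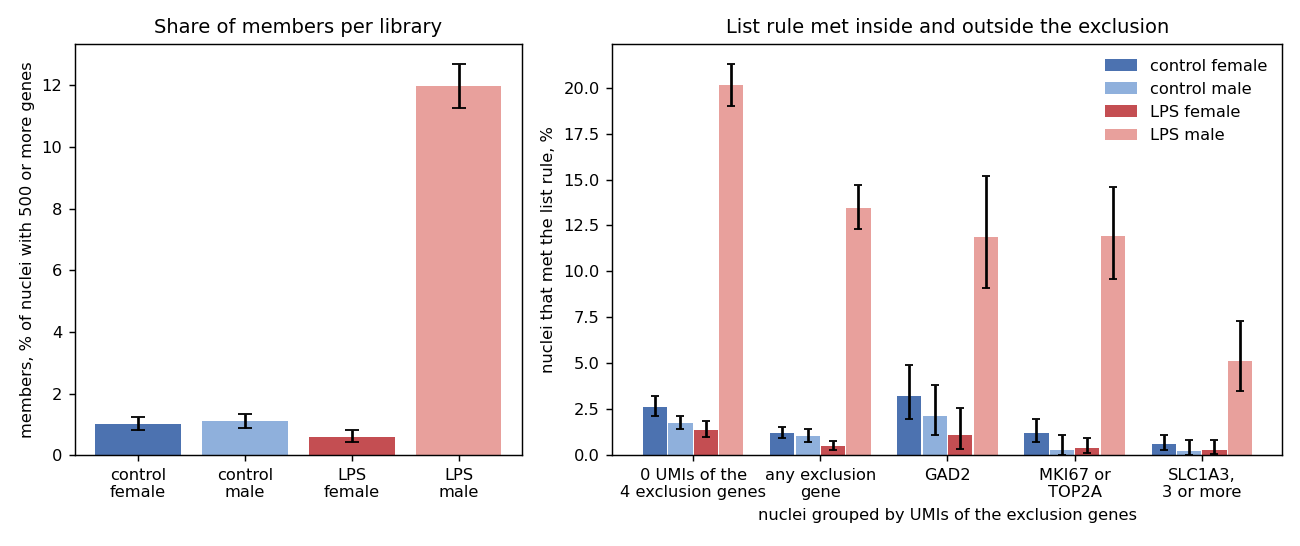
Left, percent of nuclei that were RAB37 GABRB2 nuclei in each library, with exact 95% binomial intervals; right, percent that met the list part of the rule among nuclei with 0 UMIs of the 4 exclusion genes and among nuclei that held them. The LPS male stood highest in each class, at 11.97% on the left and, on the right, from 5.15% in astroglial nuclei to 20.1% in nuclei with 0 UMIs.

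The order of the libraries was checked under other rules. With each nucleus thinned to 1000 UMIs it was 1.03%, 0.854%, 0.593% and 11.6%, after 389, 780, 165 and 1788 shallower nuclei were left out. Without RAB37 and PTK2B in the list the members were 27, 42, 12 and 335 nuclei, or 0.292%, 0.487%, 0.174% and 4.29%. Under both rules the LPS female was lowest and the LPS male highest.

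Beyond the rule, levels in the members were compared with those in the other 5 lists. Over 5006 genes with at least 5 UMIs in the members of every library and outside the 6 lists, 998 (19.9%) were higher in the members in 4 of 4 libraries and 1216 (24.3%) were lower. Since the nuclei were chosen on their own counts, these levels are a description without a test. Over the 1720 genes with at least 20 UMIs, the log2 ratios of members to other lists correlated between libraries with Pearson's r from 0.699 between the LPS fetuses to 0.854 between the control female and the LPS male. These correlations are across genes, which are not independent replicates. The libraries of each pair share the choice of members on the same 6 lists.

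Among the 25 leading genes were KIAA0319, a membrane protein studied in neuronal migration, with a log2 ratio of 3.39, 3.63, 3.03 and 2.04, and PTCHD1, a synaptic protein linked to autism, with 3.20, 2.59, 1.98 and 1.95. SCN2A, a voltage-gated sodium channel gene of axons, stood at 2.65, 2.30, 2.86 and 1.75. In CPM, SCN2A had 850.5, 671, 725 and 1076 in the members and 135, 136, 99.1 and 320.0 in the other lists. All 3 genes were higher in the members of each library, and for each the ratio was smallest in the LPS male.

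Several leading genes encode channels, receptors or proteins of the synapse. KCNIP1, a subunit of A-type potassium channels, had a log2 ratio of 3.35, 1.63, 3.89 and 1.77, and KCNN2, a calcium-activated potassium channel, of 2.97, 1.64, 2.07 and 1.51. For KCNIP1, astroglial nuclei held 434, 631, 481 and 862 CPM against 116, 113, 111 and 305 CPM in the members, so it was higher outside the granule lineage in each library. GRM4, the presynaptic glutamate receptor of parallel fibers, had 2.18, 1.69, 1.70 and 1.97 and FGFR1, a fibroblast growth factor receptor, 1.75, 1.78, 1.77 and 1.5. SNAP25, a core protein of vesicle fusion, stood at 723, 328, 545 and 581 CPM in the members and 173, 90.3, 205 and 204 CPM in the other lists, a log2 ratio of 2.05, 1.85, 1.40 and 1.5. SYNDIG1, which regulates AMPA receptor content at synapses, stood at 2.59, 2.15, 3.39 and 1.40.

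Other leading genes were SIDT1, SLCO3A1, DYNC1I1, ABCA1, AK5, GRK3, PATJ, MTCL1, PTPRR, TMEM132C, RAPGEF4, VSNL1, a neuronal calcium sensor, INPP4B, a phosphoinositide phosphatase, FAT2, an atypical cadherin of granule cells, and RBFOX1. VSNL1 had a log2 ratio of 2.63, 2.84, 1.75 and 1.33 and RBFOX1 of 1.99, 2.00, 1.73 and 1.33. The lowest of the 25 minimum ratios was 1.28. The median ratio of the 25 genes was 2.58, 1.85, 1.93 and 1.51. In 16 of the 25 genes the ratio was smallest in the LPS male, and in 22 of 25 the level in the other lists was highest there. The smaller ratios of the LPS male went along with a higher level in the nuclei compared, and the members' own level was highest there in 12 of 25.

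**Figure D3:**
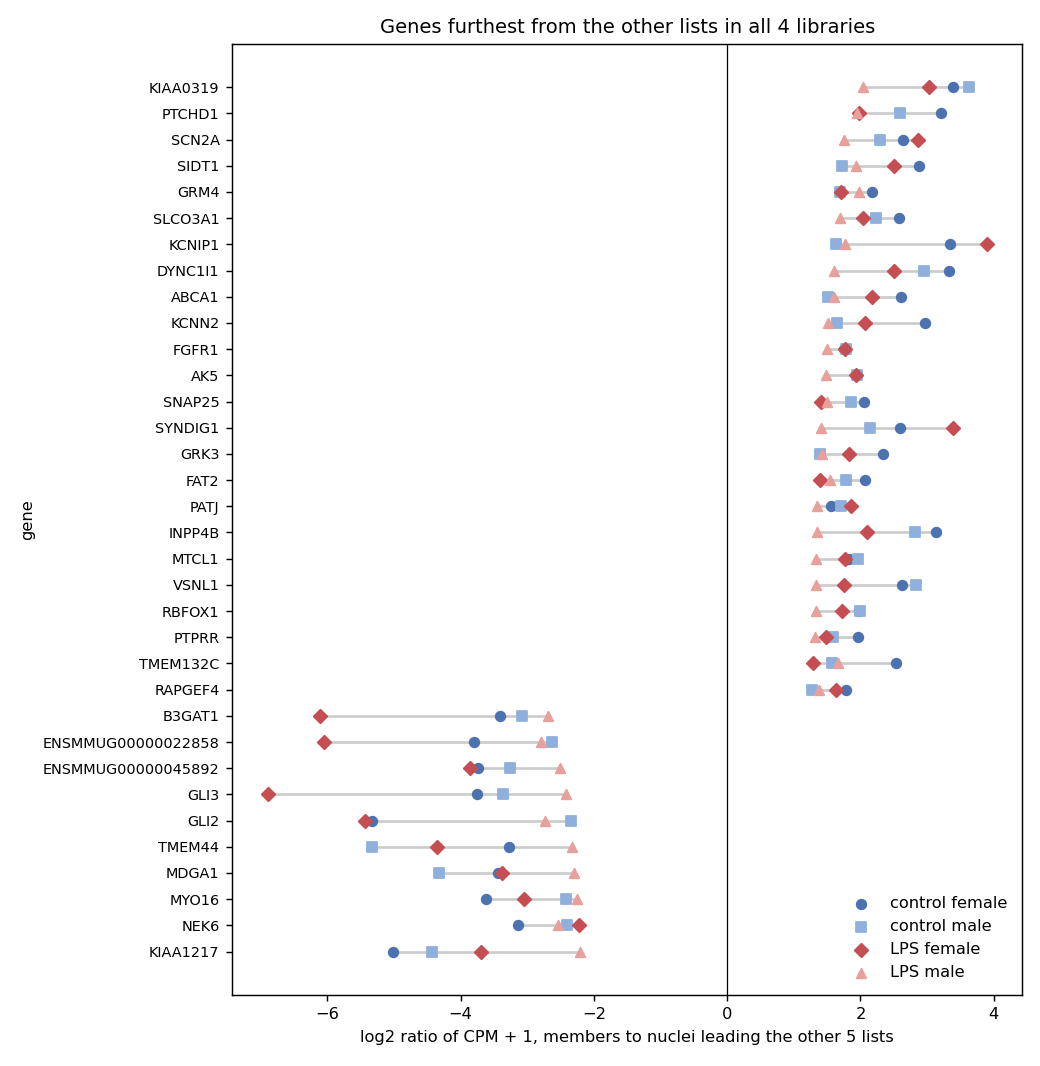
Log2 ratio of CPM plus 1 in the RAB37 GABRB2 nuclei to that in the nuclei of the other 5 lists, for 24 genes that were higher and 10 that were lower in the 4 libraries; each point is 1 library. KIAA0319 lies between 2.04 and 3.63 and GLI3 between -6.89 and -2.41, with the LPS male nearest to 0 for many genes.

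The TRPC7 and NELL1 lists are part of the nuclei on which the 25 genes were chosen, so levels above them follow in part from that choice. The members were above the TRPC7 list in 100 of 100 comparisons of a gene and a library and above the NELL1 list in 95, and the NELL1 list was above the TRPC7 list in 93. For 20 of the 25 genes the members were above the NELL1 list in every library. Against free RNA the members were higher in 99 of 100 comparisons. SCN2A, for example, had 287, 223, 246 and 453 CPM in the TRPC7 list, 522, 459, 413 and 711 in the NELL1 list and 850.5, 671, 725 and 1076 in the members.

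The 10 genes lowest in the members included genes of hedgehog signaling and adhesion. GLI3, a transcription factor of the hedgehog pathway, had 39.6, 42.2, 5.29 and 73.5 CPM in the members and 546, 444, 744 and 396 CPM in the other lists. Its log2 ratio was -3.75, -3.37, -6.89 and -2.41, where that of the LPS female rested on 1 UMI in the members. GLI3 was also low in the TRPC7 list, at 45.5, 63.4, 35.6 and 99.5 CPM. In the NELL1 list it had 42.4, 69.5, 62.4 and 161 CPM. GLI2, of the same family, was also among the 10 lowest, but in the control male it had 23.5 CPM in the members, on 5 UMIs, against 14.6 in the TRPC7 list and 20.01 in the NELL1 list. B3GAT1, which makes the HNK-1 carbohydrate of neural adhesion, had 3, 4, 0 and 68 UMIs in the members, or 6.59, 18.8, 0 and 21.5 CPM against 79.3, 166, 68.2 and 144 in the other lists. MDGA1, a neuroligin partner, stood at log2 ratios of -3.43, -4.33, -3.38 and -2.31 and MYO16, an unconventional myosin, -3.61, -2.42, -3.05 and -2.25. GLI3, B3GAT1, MDGA1 and MYO16 were lower than the other lists together in each library, which follows from how the 10 were chosen. Over the 10 genes the members were below the TRPC7 list in 38 of 40 comparisons of a gene and a library and below the NELL1 list in 33, and 6 genes were below the NELL1 list in every library. Many of these comparisons rested on fewer than 5 UMIs in the members. TMEM44, NEK6, KIAA1217, ENSMMUG00000022858 and ENSMMUG00000045892 were the other genes of the 10.

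GABA-A receptor genes differed by subunit. Of the 6 genes outside the rule with at least 5 UMIs in each library, 3 were higher in the members in 4 of 4 libraries and 2 lower. Of these, 2 were also higher and 1 also lower than both the TRPC7 and the NELL1 list in each library. Over all 5006 genes these shares were 5.89% and 4.63%. The TRPC7 and NELL1 lists are called the nearest lists here, since their genes were found in the largest shares of members of each library. This is a name only, as these shares count genes of the rule, which bounds the other lists. In the control male the TRPC7 list was barely ahead of the RASGEF1B list, at 58.9% against 57.9% of members. GABRA6 had 125.3, 51.6, 89.9 and 113 CPM in the members against 6.49, 3.77, 5.27 and 20.8 in the other lists and 19.8, 2.97, 11.9 and 48.5 in free RNA. GABRA6 was thus higher in the members than in the other lists and in free RNA of each library.

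GABRA2, a subunit gene of immature neurons, ran the other way. It had 74.7, 56.3, 89.9 and 48.9 CPM in the members and 355, 155, 436 and 232 CPM in the RASGEF1B list, with log2 ratios to all other lists of -2.07, -1.55, -2.04 and -1.80. GABRB2 and GABRA6 were thus high where GABRA2 was low, though GABRB2 was used by the rule.

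**Figure D4:**
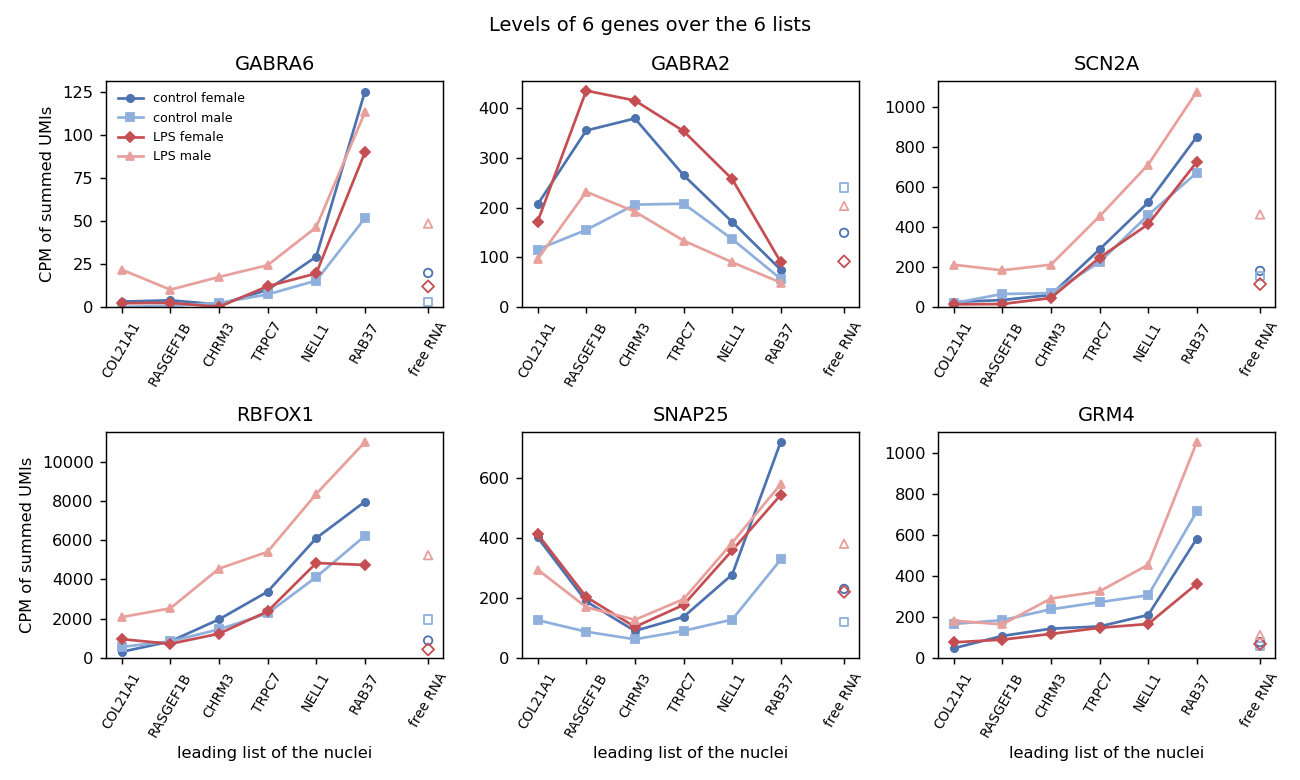
Level in CPM of GABRA6, GABRA2, SCN2A, RBFOX1, SNAP25 and GRM4 in the nuclei of the 6 lists, by library, with open symbols for free RNA; lists run from COL21A1 to RAB37. SCN2A in the RAB37 list stood at 850.5, 671, 725 and 1076 CPM, and GABRA2 was lower there than in the RASGEF1B list in each library.

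Glutamate receptor genes were counted in the same way, beside 19.9% higher and 24.3% lower over all genes. Of 13 ionotropic receptor genes, 3 were higher and 5 lower in 4 of 4 libraries, of which 1 was higher and 3 lower than both nearest lists as well. GRIN2C, the NMDA receptor gene of mature granule cells, had 35.2, 56.3, 31.7 and 79.5 CPM in the members and 1.41, 3.47, 1.29 and 12.01 CPM in the other lists. GRIN2A stood at log2 ratios of 2.41, 2.40, 1.55 and 1.56. Of 4 metabotropic receptor genes, 2 were higher and 1 lower, GRM7 at -1.31, -1.39, -0.19 and -0.69. GRIN2C was above both nearest lists in each library, and GRIN2A above the TRPC7 list in 4 and the NELL1 list in 3.

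Channel and release genes were compared with the other lists together and then with the 2 nearest lists. Sodium channels counted 3 higher and 0 lower of 6, A-type potassium channel genes 3 and 0 of 6, and calcium channel alpha-1 genes 3 and 0 of 6. Of 8 genes of vesicle priming and RAB proteins, 6 were higher and 1 lower, UNC13B at -1.64, -1.12, -0.12 and -0.97. The share over all genes was 19.9% higher and 24.3% lower. Genes also higher than both the TRPC7 and the NELL1 list in each library numbered 2 for sodium channels, 1 for A-type channels, 0 for calcium channels and 6 for vesicle priming and RAB genes, beside 5.89% of all genes. The summed A-type genes had 20932, 11369, 15263 and 15599 CPM in the members, 20089, 12122, 18321 and 13955 in the TRPC7 list and 22377, 12446, 17631 and 14696 in the NELL1 list. The members were thus below both nearest lists in the control male and the LPS female, and below the NELL1 list in the control female. UNC13C, which primes vesicles, had log2 ratios of 1.30, 1.28, 1.15 and 0.89, RAB3C, of synaptic vesicles, 1.12, 0.99, 0.85 and 0.72, and SYT1, the calcium sensor of release, 0.58, 0.63, 0.47 and 0.43. CACNA1A, the P/Q-type calcium channel, had 0.48, 0.46, 0.67 and 0.65 and KCNIP4, another A-type subunit, 1.33, 0.73, 0.89 and 0.95. UNC13C, RAB3C and SYT1 were above both nearest lists in each library, while KCNIP4 was above the TRPC7 list in 2 and the NELL1 list in 1.

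Kinases of calcium signaling and synaptic adhesion genes were also set beside the 19.9% higher and 24.3% lower of all genes. Of 10 genes in the calcium signaling list besides PTK2B, 6 were higher and 2 lower in 4 of 4 libraries, and 3 and 1 of these were so against both nearest lists too. CAMK4, a nuclear kinase of activity-dependent transcription, had log2 ratios of 2.02, 1.02, 1.00 and 1.44, CAMK2B 1.38, 1.07, 0.70 and 1.03 and PRKCE 1.11, 1.47, 1.08 and 1.22. Against the nearest lists CAMK2B was above both in each library, while CAMK4 in the LPS female had 455 CPM against 469 in the TRPC7 list, and PRKCE was above the TRPC7 list in 2 libraries. FYN, a Src family kinase, was lower than the other lists at -1.10, -0.89, -1.68 and -0.79. Of 11 synaptic adhesion genes, 8 were higher and 2 lower, with NRXN3 at 1.72, 0.83, 2.32 and 0.79 and LRRTM4, a neurexin ligand, at 1.60, 1.20, 1.82 and 0.35. Of the adhesion genes 3 were higher and 1 lower than both nearest lists too, NRXN3 among the higher, while LRRTM4 was above the NELL1 list in 1 library.

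Guidance genes were few above the limit of 5 UMIs. Of 2 Slit and Robo genes outside the rule, 1 was higher and 1 lower. ROBO1, a receptor of SLIT3, had 7692, 4296, 9232 and 1854 CPM and log2 ratios of 1.03, 0.89, 0.96 and 0.06, while ROBO2 was lower at -1.71, -1.70, -2.16 and -1.12. Of 7 measured netrin genes and receptors 5 reached this limit, with 4 lower and 0 higher, beside 24.3% lower and 19.9% higher over all genes. DCC, the netrin receptor of growing axons, had -2.15, -1.92, -1.55 and -1.69, NTN4 -3.18, -1.94, -3.18 and -1.98 and NEO1 -1.41, -0.55, -1.23 and -0.99. UNC5C, which mediates repulsion by netrin, had -2.74, -1.03, -0.77 and -1.26. Of these genes 1, NTN4, was below both nearest lists in each library, and ROBO1 was above the NELL1 list in 2. SLIT3 itself was used by the rule and is not counted here.

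Of 17 transcription factor genes, 6 were higher and 5 lower, beside the same shares over all genes. ETV1, a factor that drives the late granule cell program, had 385, 145, 212 and 489.6 CPM and log2 ratios of 2.23, 1.29, 1.98 and 1.25, and ZNF385D had 2.49, 2.06, 2.76 and 1.26. NFIB, of the nuclear factor I family, was lower at -1.51, -1.5, -1.55 and -1.07. Hedgehog pathway genes counted 2 higher and 3 lower of 5, and genes of the glucocorticoid response 3 higher of 3, with NR3C1, the glucocorticoid receptor, at 0.63, 0.72, 1.23 and 0.52 and SGK1 at 0.64, 0.93, 0.41 and 0.15. Against both nearest lists 2 transcription factor genes were higher and 2 lower in each library, ZNF385D and NFIB among them, and none of the 3 glucocorticoid response genes was higher. Of the 18 innate immune genes only 3 reached 5 UMIs in each library.

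No gene of the RAB37 GABRB2 nuclei passed the test between LPS-exposed and control fetuses. Summed UMIs per fetus of 5726 genes were tested by edgeR's quasi-likelihood test, at an adjusted p under 0.1 and a log2 fold change over 0.25, and 0 (0%) were called. DESeq2 also called 0. At an unadjusted p under 0.05 edgeR had 40 (0.699%) and DESeq2 23. The 4 fetuses were in groups without overlap for 588 genes (10.3%) higher in LPS, and for 536 (9.36%) lower, or 1124 (19.6%) in either direction. The median log2 fold change over all 5726 genes was 0.013. Without 1 fetus between 5 and 28 genes were called, and without a filter on low counts 3. The 5 list genes were used by the rule and get no test.

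Genes with the smallest p among those without overlap are given as values. In 19 of the 20 genes picked in this way, free RNA was above the members in 1 or more libraries, and the part of free RNA was not tested. GALNT15, an enzyme of O-glycosylation, had 6.59, 14.1, 47.6 and 84.5 CPM in the members, with 3 UMIs in each control and a log2 fold change of 2.86 (SE 0.66). SLC24A2, a sodium and calcium exchanger of neurons, had 35.2, 46.9, 116 and 133 CPM against 25.3, 54.9, 18.2 and 173 in free RNA (log2 1.65, SE 0.46). SORL1, a sorting receptor, had 52.7, 46.9, 101 and 234 CPM against 70.7, 72.03, 55.0 and 136 in free RNA (log2 1.77). GALNT15, SLC24A2 and SORL1 were higher in both LPS-exposed fetuses, which follows from the choice of genes without overlap. The adjusted p of each was 0.999 (edgeR, n = 2 fetuses per group).

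MBP, the myelin basic protein of oligodendrocytes, had 30.8, 4.69, 74.1 and 227 CPM in the members and a log2 fold change of 2.90. Its level in the other lists was 195, 182, 214 and 542 CPM and in free RNA 277, 129.9, 249 and 339 CPM. Members lay below both in each library, and all 3 were highest in the LPS male. MBP passed the threshold without the filter on low counts (log2 2.93) and without the control female (5.14) or the LPS female (3.37). CLU, the secreted chaperone clusterin, had 17.6, 18.8, 95.2 and 71.9 CPM against 177, 51.7, 273 and 174 in free RNA, and TKT, the transketolase of the pentose phosphate pathway, 10.99, 18.8, 42.3 and 66.6 against 159.8, 23.7, 175 and 62.3.

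Other genes higher in LPS were COL25A1, a membrane collagen of neurons, APBB1IP, a Rap1 effector of integrin signaling, and IPCEF1. COL25A1 had 61.5, 42.2, 95.2 and 241 CPM against 99.0, 121, 91.9 and 343 in free RNA. APBB1IP had 13.2, 9.38, 138 and 31.5 CPM. IPCEF1 had 26.4, 14.1, 143 and 51.4 CPM. For APBB1IP and IPCEF1 the LPS female was far above the LPS male, and its members summed to the fewest UMIs. APBB1IP passed the threshold without the LPS male (log2 3.54), and GALNT15 without the LPS female (log2 3.10).

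Among the 10 genes lower in LPS, CALD1, the actin-binding caldesmon, had 136, 145, 68.8 and 29.3 CPM and a log2 fold change of -1.67 (SE 0.55). RNF220, a ubiquitin ligase, had 224, 164, 111 and 60.6 CPM (log2 -1.27) and GRID1, a delta-type glutamate receptor, 81.3, 197, 47.6 and 53.9 CPM (log2 -1.37). The groups were apart for each of the 3 genes, which follows from how they were picked. CPLX1, the complexin of vesicle release, had 44.0, 61.0, 10.6 and 21.1 CPM, and XYLT1, which starts proteoglycan chains, 167, 511, 101 and 117 CPM, where the control male was well above the control female. AHI1, IRF2, ITGA9 and ESR2 stood at log2 fold changes between -1.63 and -1.19. ENSMMUG00000009264, which has no symbol, had 63.7, 37.5, 0 and 11.99 CPM, with 0 UMIs in the LPS female.

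**Figure D5:**
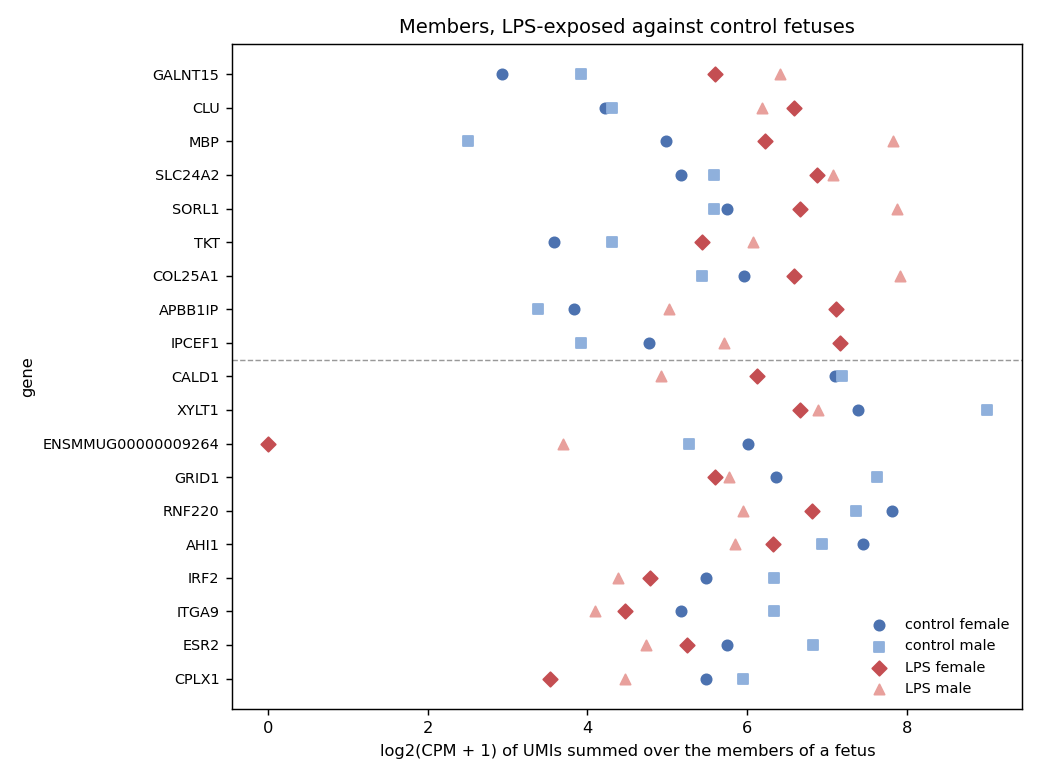
Level on the log2(CPM + 1) scale in the RAB37 GABRB2 nuclei of each of the 4 fetuses, for 19 genes with the smallest p among those whose groups do not overlap; the dashed line separates 9 genes higher in LPS from 10 lower. None had an adjusted p under 0.1, and the 2 fetuses of a group often stood apart, as for APBB1IP at 13.2, 9.38, 138 and 31.5 CPM.

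In the gene lists 0 genes were called between the groups. Over the lists with at least 6 genes tested, medians of the log2 fold change lay between -0.06 and 0.33. Of the mature granule genes 8 passed the filter on low counts, with a median log2 fold change of 0.33, beside 0.013 for all genes. GABA-A receptor genes had a median of -0.06 over 6 genes, sodium channels 0.18 over 6, synaptic adhesion genes 0.12 over 12, calcium kinases 0.12 over 11 and transcription factors 0.28 over 17. Of the innate immune genes 3 of 18 passed, so a difference in most of these genes was not detectable at this depth.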

How the data were processed

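Nuclei of 4 fetal rhesus cerebella were sequenced by 10x Genomics snRNA-seq with 1 library per fetus. The deposited matrices hold raw UMI counts per gene and barcode, which the authors did not normalize or filter, over 30807 genes. Per the submitters' processing notes the reads were mapped with Cell Ranger 4, and per the extract protocol and the methods of the study with Cell Ranger 5.0, to Mmul 8.0.1 with introns included. SoupX, used later in the study, is not in these counts. As introns are counted, levels reflect nuclear and unspliced RNA.

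Barcodes with at least 500 genes were kept. No barcode was removed for mitochondrial RNA or as a doublet. Scrublet scores (scanpy 1.11.5) with the automatic threshold called under 0.5% in both males, so the median threshold of the females, 0.189, was used there. Free RNA was taken from barcodes ranked, by UMIs, between 3 and 6 times the number of nuclei. Its share in nuclei was estimated from markers of other cells.

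Counts of members were summed per fetus. LPS-exposed and control fetuses were compared by edgeR 4.0.16 (R 4.3.3; TMM, quasi-likelihood test, Benjamini-Hochberg over all genes), at an adjusted p under 0.1 and a log2 fold change over 0.25. Nuclei of 8 classes were compared at an adjusted p under 0.05. DESeq2 1.42.0 was an alternative. Other alternatives were a minimum of 1000 genes or 3 list genes, thinning to 1000 UMIs, no doublets, free RNA subtracted, no filter on low counts, sex as a block, and leaving out each fetus. The scripts were tested on simulated data. Levels are UMIs scaled to a common total (CPM), and ratios of members to other nuclei use a pseudocount of 1 CPM.

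The genes named were the 5 list genes, the 25 genes outside the 6 lists with the largest minimum and the 10 with the smallest maximum ratio over the 4 libraries, among genes with at least 20 UMIs in the members, or for the lower genes in the other nuclei, of every library. For LPS against control they were the 10 genes per direction with the smallest p among those without overlap and with a mean of at least 20 CPM, besides genes of the pathway and marker lists. The members and the lists were chosen with earlier results of these data known. Of the lists, ATF4, BARHL1, CAMK2D, CXCL8, EOMES, GABRB1, HSP90AA1, HSPA1A, JUN, KCND3, KIT, NLGN2, NTN1, PER1, SCN4B and SOX10 had no row under their symbol. Some genes within these rules are not reported here, though counts over a list include them.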

Additional observations from a re-analysis of the deposited data

Results flagged for a closer look

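The share of RAB37 GABRB2 nuclei differed between the sexes in its direction. The log2 ratio of LPS to control was -0.774 in females and 3.44 in males, with 1 fetus per sex and group. The difference between the sexes was not tested. Sex cannot be told apart from the single fetus, nor from depth and free RNA of the libraries. Median UMIs per nucleus were 4506 and 4062 in the control and LPS females, and 1882 and 2308 in the control and LPS males. The estimated share of free RNA was 9.0% and 7.64% in these females, and 28.2% and 34.4% in these males.

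Nuclei left out of the members for a UMI of SLC1A3, GAD2, MKI67 or TOP2A met the list part of the rule in 13.5% of cases in the LPS male, above both controls at 1.23% and 1.03%. In free RNA the 5 list genes summed to 702 CPM in the LPS male, against 98.9 and 189.8 CPM in the control female and the control male. The part of either in the share of members was not tested.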

How the results depend on the processing

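The log2 ratio of the share of members between LPS-exposed and control fetuses was 2.57. It lay between 2.51 and 2.80 under other rules for members, without doublets and by DESeq2, and was not past the threshold in any of these. Without 1 fetus it ranged from -0.83 without the LPS male to 3.50 without the LPS female. With sex as a block it was 1.37. Over the alternatives with all fetuses, the adjusted p ranged from 0.123 with at least 3 list genes to 0.950 with sex as a block (edgeR). Counting an exclusion gene only at 2 or more UMIs, chosen after seeing the data, gave a log2 ratio of 2.55. Of genes in the members, 0 were called. Without a filter on low counts 3 were called, TTR and MBP among them. Without 1 fetus between 5 and 28 were called, namely 5 without the control female, 12 without the control male, 28 without the LPS female and 14 without the LPS male. Where only 1 fetus was left in a group it was assumed to vary like the other group, and without the control male or the LPS male the genes called included those of the Y chromosome. For the 20 genes named for LPS, 251 values under alternatives kept their direction in each case, and 246 were not past the threshold. The 5 past it were GALNT15 at 3.10 without the LPS female, MBP at 2.93 without the filter, 5.14 without the control female and 3.37 without the LPS female, and APBB1IP at 3.54 without the LPS male. The cause was not tested. The 20 genes were chosen for groups without overlap, so their kept direction follows largely from that choice. Depth was lowest in the LPS female with 41 members and 189014 UMIs and in the control male with 95 and 213207. No replicate block was used, since the labels number no pairs of fetuses.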
